A study of Homo sapiens with 2 samples.

Results

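The genes described here are 10 enzymes and cofactors that write, copy and remove 5-methylcytosine: DNMT1, UHRF1 and UHRF2 (maintenance), DNMT3A, DNMT3B and DNMT3L (de novo methylation), TET1, TET2 and TET3 (oxidation) and TDG (base excision). They were taken by name from a table of 58735 genes, in which each name had a row, and 9 of the 10 had at least 10 counts in at least 1 library. RNA was sequenced from PLC8024 cells, also called PLC/PRF/5 or Alexander cells, an epithelial line from a hepatocellular carcinoma (HCC). The comparison is of 1 library of MAEL WT cells, labelled wildtype and non-treated, with 1 library of MAEL KO cells, in which MAEL was knocked out with an sgRNA and Cas9. Knockout cells were grown from single sorted cells, so that an effect of the knockout and a property of the clone cannot be told apart.

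In cells that divide, each round of replication leaves CpG sites methylated on the old strand alone. UHRF1 binds these hemimethylated sites and, through its ubiquitin ligase activity, brings DNMT1 to the replication fork, where DNMT1 copies the mark. DNMT3A and DNMT3B methylate sites that carried no mark, with DNMT3L as a catalytically inactive partner that acts mainly in germ cells. The TET dioxygenases oxidise 5-methylcytosine, and TDG cuts out the most oxidised forms, which base excision repair replaces with cytosine. MAEL, a protein of the piRNA pathway, takes part in the silencing of retrotransposons in the germ line, where DNA methylation is among the silencing marks. Whether the methylation machinery differs in RNA level between MAEL WT and MAEL KO cells is the question these genes address. DNA methylation itself was not measured in these libraries.

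The MAEL WT library held 19904136 counts and the MAEL KO library 20833332. MAEL had 1 count in MAEL WT and 0 in MAEL KO, neither above the 3 counts used here as a floor, so the labels could not be checked by the targeted transcript. Of 8 hepatocyte lineage markers, SERPINA1, APOB, FGB and HNF4A were well counted in both libraries. ALB had 59 counts in MAEL WT and 8550 in MAEL KO, AFP 26 and 1351, APOA1 419 and 4400 and TTR 20 and 155. The summed deposited FPKM (fragments per kilobase of gene length, scaled to library size) of the 8 was 1529 in MAEL WT and 4733 in MAEL KO. The summed FPKM was 1.63 and 1.33 for 6 fibroblast markers and 2.08 and 2.79 for 3 endothelial markers. Of 5 immune markers, 3 had at most 3 counts in either library, PTPRC and CD3E among them, and LYZ gave nearly all of the sum of 32.7 and 22.3 FPKM. Counts were scaled by TMM factors, and the log2 fold change of MAEL KO over MAEL WT was taken after adding 1. With 1 library per group there is no replicate error and no test. The 95% intervals of a fold change were derived from the share of a gene's counts in MAEL KO (Clopper-Pearson, exact) and cover counting error only. The words higher and lower refer to these 2 libraries.

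The start sites of UHRF1 and DNMT1, the maintenance pair that were both higher in MAEL KO, are shown with that of TET2, the measured member with the smallest difference. Of the 3 starts listed for UHRF1, the 2 whose windows held the letters searched are shown. Of the 2 listed for TET2, the one at the 5′ end of the gene is shown. Its window of 300 bases held 13 CpG, whereas that of the other TET2 start held 35. Each run covers 180 bases before to 20 bases after a RefSeq start site of GRCh38.p14 and reads 5′ to 3′ along the gene's strand. Capitals mark the letters TTTCCCGC, TTTCGCGC, TTTGCCGC or TTTGGCGC, forms of the E2F consensus, on either strand.
UHRF1 start 1, chr19:4909321-4909520, plus strand: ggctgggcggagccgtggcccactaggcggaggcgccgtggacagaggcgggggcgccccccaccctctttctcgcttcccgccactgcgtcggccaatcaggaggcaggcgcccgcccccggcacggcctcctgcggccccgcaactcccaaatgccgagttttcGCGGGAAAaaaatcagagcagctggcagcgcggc
UHRF1 start 2, chr19:4909964-4910163, plus strand: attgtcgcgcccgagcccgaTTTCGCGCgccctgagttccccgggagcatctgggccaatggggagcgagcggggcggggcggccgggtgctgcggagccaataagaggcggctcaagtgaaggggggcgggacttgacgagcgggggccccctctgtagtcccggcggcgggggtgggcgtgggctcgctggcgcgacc
DNMT1, chr19:10194934-10195133, minus strand: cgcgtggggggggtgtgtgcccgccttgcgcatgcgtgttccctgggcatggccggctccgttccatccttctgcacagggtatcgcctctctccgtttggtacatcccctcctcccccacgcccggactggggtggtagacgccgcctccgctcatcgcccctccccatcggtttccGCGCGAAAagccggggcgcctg
TET2, chr4:105145695-105145894, plus strand: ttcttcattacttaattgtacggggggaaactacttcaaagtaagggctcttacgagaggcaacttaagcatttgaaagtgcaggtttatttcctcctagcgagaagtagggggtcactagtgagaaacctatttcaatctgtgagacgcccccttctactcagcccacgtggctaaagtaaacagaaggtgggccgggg
The match before start 2 of UHRF1 lies at -160 to -153, the one before start 1 at -14 to -7, and the one of DNMT1 spans its start site from -2 to 6. Windows of 300 bases (250 before to 50 after a start) were listed for 9 of the 10 members, 20 windows in all, and DNMT3L had none. These letters stood in 3 of the 20, the windows just named. The remaining window of UHRF1, the 1 window each of DNMT3B, TDG and UHRF2, the 6 of DNMT3A, the 3 of TET1 and the 2 each of TET2 and TET3 did not hold them. They stood in 3.31% of all 35116 windows, in 5.82% of the 10568 windows with at least 26 CpG, the median of the member windows, and in 40% of the 40 windows of the S-phase replication genes described further on. Some of these starts lie far from the annotated 5′ end of the gene, by 36333 bases for DNMT1, 17467 for DNMT3B and 6421 to 7287 for UHRF1. They lie close to an annotated GENCODE 29 transcript start, however, at 19 bases for DNMT1, 0 for DNMT3B and 0 to 3 for UHRF1. The only DNMT3B window, with 3 CpG, is thus an internal one, and the 5′ end of DNMT3B was not searched. Among the windows without a match, starts lay up to 90459 bases away for DNMT3A, 39818 for TET1 and 16288 for TET3. A match is a description of the letters and not a binding site.

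The maintenance genes were higher in MAEL KO, UHRF1 most of all. UHRF1 (chromosome 19, 4903080 to 4962154, plus strand, 7 transcripts in GENCODE 29) had 486 counts in MAEL WT and 1913 in MAEL KO. Its level was 4.32 FPKM in MAEL WT and 19.6 FPKM in MAEL KO, 4.55 times as high on normalized counts. On the log2 scale the change was 2.18 (95% interval 2.04 to 2.33). UHRF1 was the only one of the 10 to pass the log2 threshold of 2 that the study's methods use. Those methods also set a cutoff on an adjusted p value, which was not computed here. The threshold of 2 was passed upward by 2.16% and downward by 5.64% of the 17887 genes tested. The log2 fold change of UHRF1 was at percentile 98.3 of those genes. Scaled by total counts instead, it was at 1.91 (95% interval 1.77 to 2.06), just under the threshold. DNMT1 (chromosome 19, 10133345 to 10231286, minus strand, 28 transcripts) had 2018 and 4034 counts, or 9.42 and 21.7 FPKM. Its log2 fold change was 1.21 (95% interval 1.13 to 1.29), or 0.93 with total counts. UHRF2 (chromosome 9, 6413151 to 6507054, plus strand), a paralog of UHRF1 that does not replace it in maintenance, had 334 and 458 counts, or 1.54 and 2.44 FPKM. Its log2 fold change was 0.66 (95% interval 0.46 to 0.87). The 2 paralogs therefore differed in their change by 1.52 on the log2 scale (95% interval 1.27 to 1.78), a contrast that no scaling between libraries can alter.

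The de novo enzymes did not change alike. DNMT3B (chromosome 20, 32762385 to 32809356, plus strand) had 683 counts in MAEL WT and 1575 in MAEL KO. Its level was 6.74 and 17.9 FPKM. Its log2 fold change was 1.41 (95% interval 1.29 to 1.55), and 1.14 with total counts. DNMT3A (chromosome 2, 25227855 to 25342590, minus strand) had 1005 and 1152 counts, or 3.82 and 5.06 FPKM, and its log2 fold change was 0.41 (95% interval 0.28 to 0.53). With total counts DNMT3A was at 0.13 (95% interval 0.01 to 0.25). The change of DNMT3B exceeded that of DNMT3A by 1.01 on the log2 scale (95% interval 0.83 to 1.19). DNMT3L (chromosome 21, 44246339 to 44262216, minus strand) had 0 counts in both libraries, which allows at most 0.151 CPM in MAEL WT and 0.144 CPM in MAEL KO, so its transcript was not detectable at this depth.

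Of the demethylation genes, TDG and TET1 were higher in MAEL KO, and TET2 and TET3 were nearly level. TDG (chromosome 12, 103965804 to 103988874, plus strand), the glycosylase that excises 5-formylcytosine and 5-carboxylcytosine, had 700 and 1248 counts, or 6.53 and 13.4 FPKM. Its log2 fold change was 1.04 (95% interval 0.91 to 1.18), or 0.77 with total counts. TET1 (chromosome 10, 68560656 to 68694482, plus strand) had 203 and 330 counts, or 0.999 and 1.87 FPKM, with a log2 fold change of 0.91 (95% interval 0.65 to 1.17). TET3 (chromosome 2, 73986404 to 74108176, plus strand) had 1135 and 1152 counts and TET2 (chromosome 4, 105145875 to 105279816, plus strand) 313 and 300. Their log2 fold changes were 0.23 (95% interval 0.11 to 0.35) and 0.15 (95% interval -0.08 to 0.38). With total counts both changed sign, to -0.04 for TET3 and -0.13 for TET2, with intervals that include 0, so no direction is given for either. The change of TET1 exceeded that of TET3 by 0.68 (95% interval 0.39 to 0.97) and that of TET2 by 0.76 (95% interval 0.41 to 1.11).

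**Figure D1:**
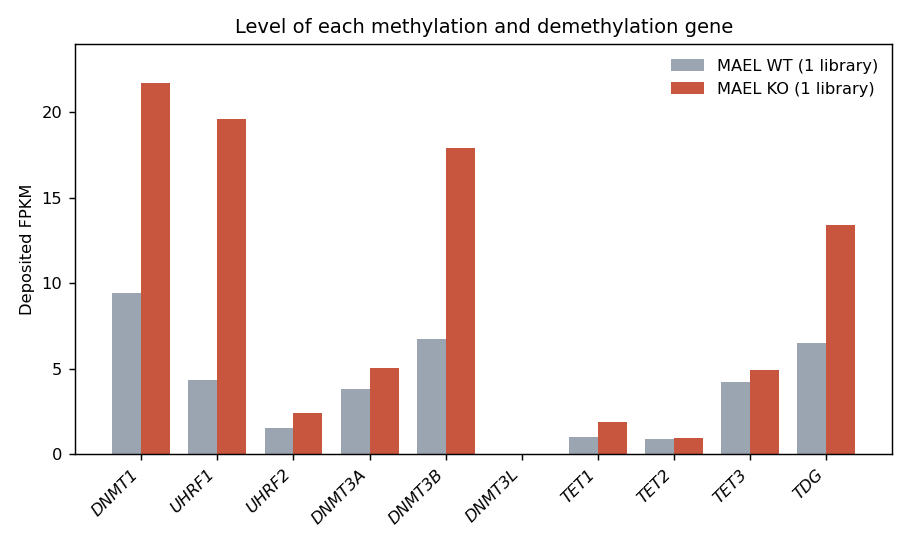
Deposited FPKM (vertical axis, linear, from 0) of the 10 genes in the MAEL WT library (grey bars) and the MAEL KO library (red bars), 1 library each and so without error bars. DNMT1, UHRF1, DNMT3B and TDG stand between 13.4 and 21.7 FPKM in MAEL KO, whereas the other measured members stay at or under 5.06 FPKM in both libraries.

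All 9 measured members had a log2 fold change above 0 with TMM factors, from 0.15 for TET2 to 2.18 for UHRF1. Over all 17887 genes 48.0% were above 0. The member median was 0.91 beside a median of -0.04 over all genes. With total counts 7 members were above 0 and 2 below. The share of all genes above 0 was not computed for that scaling, here or beside the lists below. The member median was then 0.63 and the median of all genes -0.31, a shift of -0.27 that applies to every gene. Past a log2 fold change of 1 there were 4 members higher, UHRF1, DNMT3B, DNMT1 and TDG, and 0 lower. Of all genes 10.2% passed 1 upward and 16.5% downward. Among the 12023 genes with at least 100 counts, a level that all 9 members reached, 9.23% passed 1 upward and 9.16% downward, and 1.54% passed 2 upward and 2.35% downward. With total counts the number past 1 was 2, UHRF1 and DNMT3B. With that scaling 1174 of the 17887 genes passed 1 upward and 4017 downward. Of all genes past 2 in either direction 27.7% were higher with TMM factors and 17.0% with total counts, and past 1 38.2% and 22.6%. The counting interval lay above 0 for 8 of the 9, for 34.8% of all genes and for 45.1% of those with at least 100 counts.

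**Figure D2:**
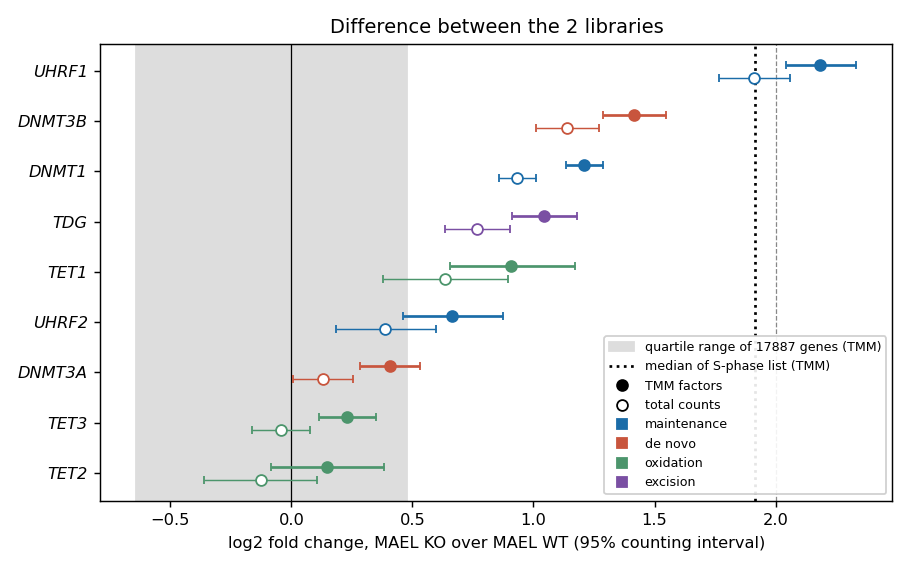
Log2 fold change of MAEL KO over MAEL WT for the 9 measured members (horizontal axis), with filled points for TMM factors, open points for total counts, bars for the 95% counting interval and colours for the role. The grey band runs from the lower to the upper quartile of all genes, the dashed line marks the threshold of 2, and the dotted line at 1.92 marks the median of the S-phase list. UHRF1 lies at 2.18, past the threshold, while DNMT3A, TET3 and TET2 lie inside the band.

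The differences between members do not depend on scaling, since each compares 2 genes inside the same 2 libraries. Of the 36 pairs of measured members, 32 had a difference in log2 fold change whose 95% counting interval excluded 0. The share for pairs of other genes was not computed, so this count does not set these members apart. Of the 8 pairs of neighbours in the order UHRF1, DNMT3B, DNMT1, TDG, TET1, UHRF2, DNMT3A, TET3, TET2, 5 had such an interval and 3 did not. The 3 were TDG and TET1 (0.13, interval -0.16 to 0.42), TET1 and UHRF2 (0.25, interval -0.09 to 0.58) and TET3 and TET2 (0.08, interval -0.18 to 0.35). The largest gap between neighbours was that of UHRF1 over DNMT3B, at 0.77 (interval 0.57 to 0.97).

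By level per gene length, the order of the members also differed between the libraries. In MAEL WT the order by FPKM was DNMT1, DNMT3B, TDG, UHRF1, TET3, DNMT3A, UHRF2, TET1 and TET2. Neighbours whose ratio could not be told from 1 by counting error were DNMT3B and TDG (ratio 1.03, 95% interval 0.93 to 1.15), UHRF1 and TET3 (1.02, interval 0.92 to 1.14) and TET1 and TET2 (1.15, interval 0.96 to 1.38). In MAEL KO the order was DNMT1, UHRF1, DNMT3B, TDG, DNMT3A, TET3, UHRF2, TET1 and TET2. UHRF1 thus stood at place 4 in MAEL WT and at place 2 in MAEL KO. Only DNMT3A and TET3 were not separated by counting error in MAEL KO (ratio 1.02, interval 0.94 to 1.11). UHRF1 had 0.459 times the level of DNMT1 in MAEL WT (95% interval 0.415 to 0.506) and 0.903 times in MAEL KO (interval 0.855 to 0.953). The gene length used is that of all annotated exons together, and isoform usage was not analysed here.

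Within the families, the composition differed for the de novo and UHRF genes, whereas the intervals of the DNMT1 share overlapped per gene length. Per gene length, UHRF1 made up 73.7% of the UHRF1 and UHRF2 level in MAEL WT (95% interval 70.9% to 76.4%) and 89.0% in MAEL KO (interval 87.9% to 89.9%). Of the summed level of DNMT1, DNMT3A and DNMT3B, DNMT1 made up 47.1% in MAEL WT (interval 45.4% to 48.8%) and 48.6% in MAEL KO (interval 47.3% to 49.8%), and these intervals overlap. In raw counts, without division by length, they did not, with 54.5% in MAEL WT (interval 52.8% to 56.0%) and 59.7% in MAEL KO (interval 58.5% to 60.8%). The share of DNMT3A was 19.1% in MAEL WT and 11.3% in MAEL KO, and that of DNMT3B was 33.7% and 40.1%. Among the TET genes, TET3 had the largest share, 69.4% in MAEL WT (interval 67.0% to 71.6%) and 63.6% in MAEL KO (interval 61.3% to 65.9%), intervals that overlap in raw counts (66.5% to 70.9% and 62.4% to 66.8%). TET1 made up 16.4% and 24.1% (intervals 14.5% to 18.5% and 21.9% to 26.3%), and TET2 14.2% and 12.3%, whose intervals overlap. The summed DNMT level was 19.99 FPKM in MAEL WT and 44.7 FPKM in MAEL KO, against 6.10 and 7.79 FPKM for the TET genes. The DNMT to TET ratio was therefore 3.28 in MAEL WT (interval 3.09 to 3.48) and 5.74 in MAEL KO (interval 5.44 to 6.06).

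**Figure D3:**
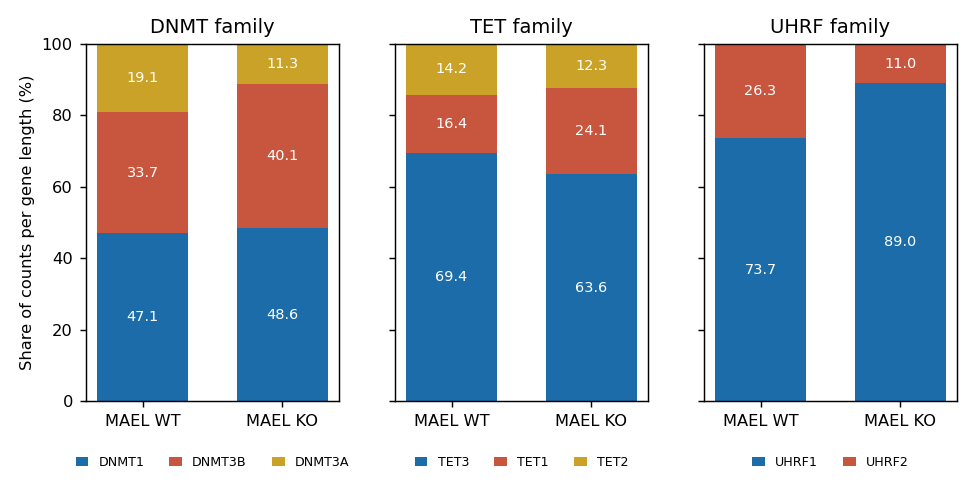
Share of counts per gene length (vertical axis, percent) that each gene holds in its family, for the MAEL WT and the MAEL KO library, with the share written in each bar. The share of DNMT1 is 47.1% and 48.6%, whereas that of DNMT3A is 19.1% and 11.3% and that of UHRF1 73.7% and 89.0%.

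The listed partners of maintenance methylation, chromatin proteins as well as proteins of the replication fork, had log2 fold changes above 0 as well with TMM factors. All 17 listed partners of maintenance methylation were tested and all 17 had a log2 fold change above 0 with TMM factors, 15 of them with total counts. Of all genes 48.0% were above 0 with TMM factors. The partners' median was 0.92. Of the partners 8 passed 1 and 2 passed 2 upward, beside 10.2% and 2.16% of all genes. PCLAF, the PCNA-associated factor that is ubiquitinated by UHRF1 and binds DNMT1, had 70 counts in MAEL WT and 646 in MAEL KO (log2 fold change 3.40, 95% interval 3.06 to 3.79). PCNA, the sliding clamp to which DNMT1 binds, had 725 and 3545 counts (log2 fold change 2.50), and the replicative ligase LIG1, another binding partner of UHRF1, had 576 and 1961 (1.98). At the other end were the H3K9 methyltransferases EHMT2 at 0.38 and EHMT1 at 0.09 and the DNMT1-binding protein DMAP1 at 0.18. HELLS, the chromatin remodeller needed for methylation of repeats, had 295 and 953 counts (log2 fold change 1.90), and its partner CDCA7 had 526 and 1269 (1.48). HELLS and CDCA7 fall outside the naming rule and were chosen after their values were seen.

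S-phase replication genes, the enzymes and loading factors of DNA synthesis, were higher beside these members. All 36 genes of that list were higher in MAEL KO under both scalings. Their log2 fold changes ran from 0.36 for RFC1 to 3.40 for RRM2, with a median of 1.92, and 15 passed 2. With TMM factors 48.0% of all genes were above 0 and 2.16% passed 2 upward. RRM2, the small subunit of ribonucleotide reductase, had 235 and 2159 counts, and the helicase subunit MCM4 was at 3.04, GINS2 at 2.66 and the origin recognition subunit ORC1 at 2.56. PCNA (2.50), MCM10 (2.48), the licensing factor CDT1 (2.45), MCM2 (2.38), MCM5 (2.28), MCM7 (2.27), GINS1 (2.24), MCM6 (2.17), TYMS (2.15) and the primase subunit PRIM1 (2.15) also passed 2. The lowest beside RFC1 were ORC6 at 1.32 and POLD1 at 1.05 among genes with at least 100 counts. PCNA and LIG1 are on this list as well as among the maintenance partners. Of the 36, 24 had a smaller log2 fold change than UHRF1, 5 a smaller one than DNMT3B, 3 a smaller one than DNMT1 and 1 a smaller one than TDG, while 0 were below TET3 or TET2. The paper reports that PLC8024 cells proliferated more slowly after MAEL knockout, and how that relates to these RNA levels was not tested. How far the share of cells in S phase bears on the levels of UHRF1, DNMT1 and DNMT3B was not tested either. In RNA from whole cultures more cells of a phase and more RNA per cell cannot be told apart.

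Beyond the core members, repair, reader and methyl donor genes had medians near that of all genes. Of 27 genes for base excision repair and for the cofactors of demethylation, 25 were tested, 11 were above 0 and 14 below, and the median was -0.09. The uracil glycosylase UNG was at 1.76 (662 and 1938 counts), and IDH2, the mitochondrial enzyme that makes the TET cosubstrate 2-oxoglutarate, was at 1.38 (3347 and 7539 counts). HMCES, which shields abasic sites in single-stranded DNA, was at 0.98. The stress-induced GADD45A, which has been tied to active demethylation, was at -1.23 (2394 and 883 counts), and OGT, the O-GlcNAc transferase that binds TET proteins, was at -1.13 (14340 and 5674 counts). IDH1, the cytosolic counterpart of IDH2, was at -0.37. In 10 tested methyl-CpG readers no gene passed 1 in either direction, with values from -0.62 for ZBTB4 to 0.37 for MBD2 and a median of -0.04.

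The supply of S-adenosylmethionine, the methyl donor, gave a median of 0.09 over 17 tested genes, 10 above 0 and 7 below, and with total counts a median of -0.19, 8 above 0 and 9 below. TYMS, the thymidylate synthase, which is also on the S-phase list, had 330 and 1272 counts (log2 fold change 2.15). The cytosolic serine hydroxymethyltransferase SHMT1 was at 1.29, while its mitochondrial counterpart SHMT2 was at -1.56 (7795 and 2284 counts). AHCYL1 was at -0.60 and CBS, which commits homocysteine to cysteine synthesis, at -0.54. MAT2A, a synthetase of S-adenosylmethionine, was at 0.09 (5378 and 4937 counts), and AHCY, which clears the inhibitory product S-adenosylhomocysteine, was at 1.23 (4231 and 8605 counts). MAT2A and AHCY were chosen after their values were seen.

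**Figure D4:**
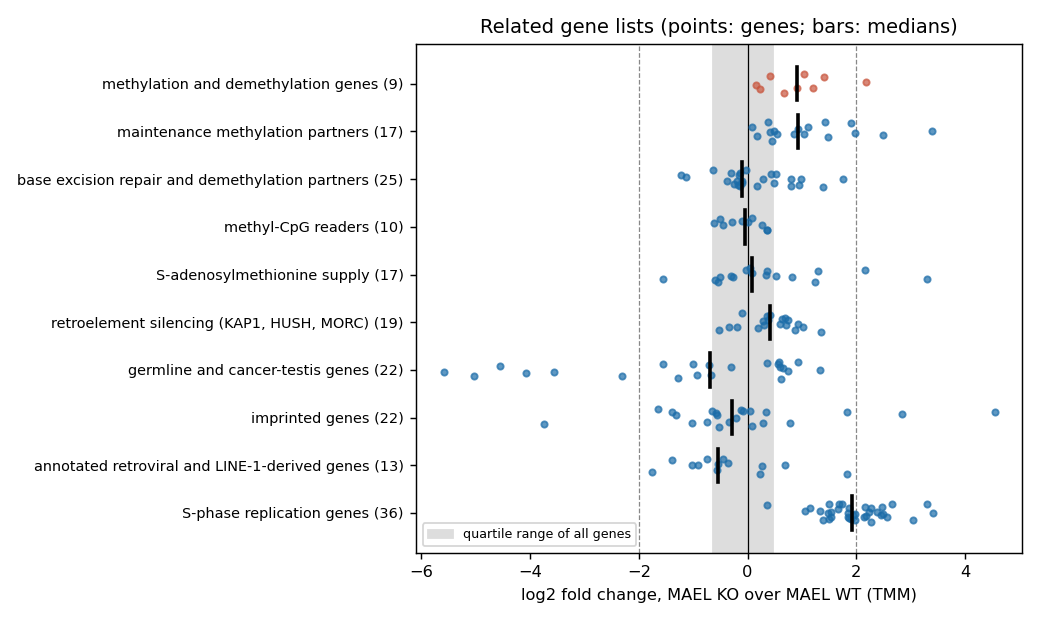
Log2 fold change of MAEL KO over MAEL WT with TMM factors (horizontal axis) for each tested gene of the members (red) and of 9 related lists (blue), with black bars for list medians, numbers of genes in brackets and the quartile range of all genes in grey. The member median of 0.91 and that of the maintenance partners, 0.92, lie right of the band, that of the S-phase list lies at 1.92, and those of readers and repair genes lie inside it.

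Germline, cancer-testis and imprinted genes, classes in which silence or imprint can rest on DNA methylation, had members on both sides of 0. Some, MAGEA4 among them, were well counted already in MAEL WT. DNA methylation at these genes was not measured, so their values are not a readout of it. Of 42 germline and cancer-testis genes, DNMT3L and MAEL among them, 22 were tested, 9 above 0 and 13 below. Their median was -0.69 (95% binomial interval -2.30 to 0.60), and 6 passed 2 downward, beside 5.64% of all genes. The median and this count were the same when the genes with at most 3 counts in MAEL KO were set at 3 counts there. The 10 with at least 100 counts had a median of 0.57. Of the 6 past 2, MOV10L1 alone was among these 10. Over all genes with at least 100 counts 2.35% passed 2 downward, and the share for genes with fewer counts was not computed. Among these 10, MAGEA4, a cancer-testis antigen of the X chromosome, was the highest, with 6917 counts in MAEL WT and 15104 in MAEL KO (log2 fold change 1.34), followed by TEX15, a germ cell factor of retrotransposon silencing, at 0.74 and CT45A1 at 0.66. MOV10L1, the RNA helicase of the piRNA pathway, had 106 counts in MAEL WT and 1 in MAEL KO, a log2 ratio of normalized counts of -6.52 with a wide 95% interval of -11.84 to -4.01. HORMAD1, a protein of meiotic chromosome axes, was at -0.93 and MAGEB2 at -0.31. The MAGEA and CT45A genes have near-identical copies, between which reads may be split, so their single values are uncertain. Germline genes DAZL, DDX4 and SYCP3, textbook targets of promoter methylation, are among the 20 with fewer than 10 counts in both libraries.

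Of 34 rows for 33 imprinted genes (IGF2 has 2 rows), 22 were tested, 8 above 0 and 14 below, with a median of -0.28. DDC, which makes dopamine and serotonin, had 29 and 608 counts (log2 fold change 4.55), PEG10, a gene derived from a retrotransposon, 3467 and 10697 (1.84), and MEST was at 0.77. PHLDA2 was at -1.65 (486 and 133 counts), L3MBTL1 at -1.02 and SNRPN at -0.65. These 6 had at least 100 counts, and CDKN1C and H19, with fewer, passed 2 and were named after their values were seen. CDKN1C, a cyclin-dependent kinase inhibitor, had 44 and 2 counts (log2 ratio -4.25, 95% interval -7.34 to -2.31), and the noncoding RNA H19 had 2 and 18 (log2 ratio 3.38, interval 1.32 to 6.53). Among 13 tested genes of retroviral or LINE-1 origin 4 were above 0 and 9 below with TMM factors, and 2 and 11 with total counts. Of those with at least 100 counts PEG10 was the highest again, followed by RTL10 at 0.27 and ERVK3-1 at 0.23, and the lowest were ERVK13-1 at -1.02 (407 and 173 counts), RTL5 at -0.74 and ERV3-1 at -0.56. The table has rows for annotated genes and none for repeat families, so the level of LINE-1 or of endogenous retroviruses as a whole was not analysed here.

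For 20 listed genes of retroelement silencing through KAP1, the HUSH complex and MORC proteins, 19 were tested, 15 above 0 and 4 below. Of all genes 48.0% were above 0. The median of the list was 0.41, or 0.14 with total counts. CBX3, a heterochromatin protein, had 3517 and 7735 counts (log2 fold change 1.35), ATF7IP2 was at 1.02 and the H3K9 methyltransferase SUV39H2 at 0.93. At the low end were MORC4 at -0.52, MORC2, which works with HUSH, at -0.33 and the KRAB zinc finger gene ZNF91 at -0.19. No gene of this list passed 2, and 2 passed 1, both upward, beside 10.2% of all genes that passed 1 upward.

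Several features of the loci were checked beside the differences. Among genes with at least 100 counts within 1 Mb of UHRF1, 41 neighbours had a median log2 fold change of 0.12, and 4 of them passed 1 upward. Around DNMT1 46 neighbours had a median of 0.22, and 3 passed 1 upward, while the median of 872 such genes on chromosome 19 was -0.04. Of all genes with at least 100 counts 9.23% passed 1 upward. Around DNMT3B 18 neighbours had a median of 0.20, and around TDG 12 had a median of -0.09. The 7 neighbours of UHRF2 had a median of 0.47, with 6 above 0, and the 5 of TET2 a median of 0.48. For DNMT3A the median was -0.12 (15 neighbours), for TET1 0.12 (17) and for TET3 0.08 (33). The exons of DNMT1 share 83 bases with S1PR2 on the same strand, which had 198 and 246 counts, and no other measured member shares exon bases with an annotated gene. The processed pseudogenes TDGP1, TET1P1 and UHRF2P1 had 10 and 6, 12 and 2, and 2 and 3 counts, few beside those of their parent genes.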

How the data were processed

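The authors sequenced RNA of 1 MAEL WT and 1 MAEL KO culture on a HiSeq platform and deposited raw read counts for each gene and FPKM values. HISAT2 2.0.5 and featureCounts 1.5.0-p3 are named in the submitters' processing notes, which also name hg19, but all 58735 rows carry the GRCh38 coordinates of GENCODE 29. The strand setting of the counting is not given in the sources used here. The deposited FPKM values are counts divided by gene length and by library sizes that equal those from DESeq2 size factors. All 4 sample columns were used.

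TMM factors came from edgeR 4.0.16 and other size factors from DESeq2 1.42.0 in R 4.3.3. Python 3.11.15 served for fold changes and intervals (SciPy 1.17.1, NumPy 2.4.6, pandas 2.3.3) and for plots (matplotlib 3.10.9). Genes with at least 10 counts in 1 library were tested, that is, given a log2 fold change, for which 1 was added to the normalized counts. Intervals for differences between members are exact conditional intervals of the odds ratio, and those of sums and level ratios follow from Poisson variances. With 1 library per group the intervals cover counting error only. They treat reads as independent, and since reads are not independent molecules they may be too narrow. The members and lists were chosen with earlier results of these data known, as were the motif and the neighbour window. The genes named are the members, MAEL and, in each list, up to 3 at each end and those past 2 with at least 100 counts. An item that this rule covers is not reported here. The functions for fold changes and their intervals were tested on simulated counts, with a median ratio of counts in place of TMM factors. The TMM step, member differences, shares, level ratios and list medians were not tested in this way. Alternatives were other scalings, FPKM ratios, prior counts, filters and raw shares.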

Additional observations from a re-analysis of the deposited data

How the results depend on the processing

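With 1 library per group no replicate was left out, and no value here has a replicate check. No paired analysis was possible because each group has 1 library. DNMT3L and MAEL gave no value under any alternative. Depth limits TET1 and TET2 most, with 203 to 330 counts.

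Of 54 values of single members under 6 alternatives, 45 stayed within their counting interval, and the 9 that moved were all members with total counts, whose factors shift every gene. With total counts the number of members past 2 was 0 and past 1 was 2, and list medians were 1.64 for S-phase genes, -0.37 for repair and demethylation partners and 0.14 for retroelement silencing. The other 78 of 81 list medians and the member median under all 9 alternatives stayed within their binomial intervals.

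Over all genes, 387 were higher and 1008 lower past 2, and 1827 and 2951 past 1. Past 2 these were 185 and 283 with at least 100 counts, 1029 and 1773 without a filter and 250 and 513 with a prior count of 5, and 254 were higher among protein-coding genes. Past 1 they were 1110 and 1101 with at least 100 counts and 5304 and 5745 without a filter, while 1915 were lower among protein-coding genes. With total counts 1174 were higher and 4017 lower past 1, and 269 and 1309 past 2.

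Without division by gene length, shares in MAEL WT and MAEL KO were 59.3% and 80.7% for UHRF1, 40.5% and 57.8% for DNMT3B of DNMT3A and DNMT3B, 54.5% and 59.7% for DNMT1, 18.4% and 23.3% for DNMT3B and 27.1% and 17.0% for DNMT3A of the 3 DNMT genes, 12.3% and 18.5% for TET1 and 18.96% and 16.8% for TET2 of the TET genes, and 30.8% and 20.9% for TET of TET and DNMT counts. Each kept the direction between libraries that it had per length, where DNMT3B of the pair was 63.8% and 78.0% and TET of TET and DNMT 23.4% and 14.8%.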
